A study of Mus musculus with 8 samples.

Results

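T lymphocytes bind vessel walls, tissue matrix and other cells through integrins, receptors built of 1 alpha and 1 beta chain. The 9 chains described here (Itga1, Itga4, Itgae, Itgal, Itgav, Itgb1, Itgb2, Itgb3 and Itgb7) were chosen by name as integrin chains that T cells use, those of gut homing and tissue residence included. They, and the gene lists used further on, were chosen with earlier results of these data known. All 9 had a row among the 25078 genes of the deposited tables. RNA was sequenced from donor T cells in the spleen on day 6 after allogeneic hematopoietic cell transplantation (HCT), in 8 libraries, with CD4 and CD8 T cells of either donor genotype in 2 libraries each. In every group the host was a BALB/c mouse, wild type by the sample titles, after lethal irradiation. Its new marrow came from C57BL/6 mice with intact Stat3 and had been cleared of T cells. Only the added C57BL/6 T cells thus differed in genotype (WT or STAT3KO). STAT3KO stands for donors with floxed Stat3 alleles and a Cre driven by Cd4, which acts during thymic development and so removes Stat3 from CD4+ and CD8+ T cells alike. Cells were sorted as H-2Kb+ TCRβ+ CD4+ or CD8+, and each library pooled the lymphocytes of several recipients. Donor age was not given in the sources used here.

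Integrins work in pairs. Itgal with Itgb2 forms LFA-1, which holds T cells to ICAM-1 on vessels and antigen-presenting cells. Itga4 pairs with Itgb1 to form VLA-4, a receptor for VCAM-1 and fibronectin, or with Itgb7 to form α4β7, which brings T cells to the gut by binding MAdCAM-1. Itgb7 also pairs with Itgae (CD103), which binds E-cadherin on epithelium, Itga1 pairs with Itgb1 to form the collagen receptor VLA-1 of tissue-resident cells, and Itgav pairs with Itgb3, Itgb1 and other beta chains to bind vitronectin, fibronectin or latent TGF-β.

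STAT3KO libraries held more transcript of Itga4 and Itgb1, the chains of VLA-4, than WT libraries in CD4 and in CD8 T cells. Itgb1 was about as much higher in CD8 (2.01-fold) as in CD4 T cells (2.06-fold), whereas Itga4 was 2.18-fold higher in CD4 and 1.5-fold higher in CD8 T cells. In CD8 T cells the calls of both chains were lost in some other fits, though not once replicate numbers were paired. Itgb3 passed the test in CD4, a call lost in some other fits, and missed it in CD8 T cells. The chains of LFA-1, Itgb7, Itgav, Itgae and Itga1 passed in neither, though Itga1 in CD8 T cells passed once replicate numbers were paired. By edgeR no chain's STAT3KO effect was called different between CD8 and CD4 (adjusted p = 0.243 for Itga4 and 0.408 for Itgb3). Once replicate numbers were paired, that difference was called for Itga4, Itgb3 and Itga1. Between CD8 and CD4 T cells, Itga1 and Itga4 were higher and Itgb1 lower in CD8, in WT as in STAT3KO libraries.

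The promoters of Itga4 and Itgb1 are shown because both chains were called higher in STAT3KO than in WT libraries in both cell types. Both run 5′ to 3′ over the 250 bases before the gene's start in the mouse build GRCm38.p6 (RefSeq), on the plus strand for both genes, and capitals mark matches to the motifs searched: the Itga4 window is chr2:79255176-79255425 and the Itgb1 window is chr8:128685404-128685653.
Itga4: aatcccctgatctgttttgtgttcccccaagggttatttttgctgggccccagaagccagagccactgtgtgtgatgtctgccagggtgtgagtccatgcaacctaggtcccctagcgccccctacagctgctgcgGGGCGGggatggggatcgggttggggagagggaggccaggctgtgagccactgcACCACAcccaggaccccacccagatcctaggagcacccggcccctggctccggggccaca
Itgb1: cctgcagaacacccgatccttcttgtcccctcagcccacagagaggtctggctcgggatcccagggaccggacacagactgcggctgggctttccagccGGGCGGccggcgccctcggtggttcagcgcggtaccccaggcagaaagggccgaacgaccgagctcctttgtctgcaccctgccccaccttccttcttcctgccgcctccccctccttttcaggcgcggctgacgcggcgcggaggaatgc
Promoters of 5 of the 9 chains (Itga1, Itga4, Itgav, Itgb1 and Itgb7) matched an entry, and the search covered 300 bases each, 50 of them after the start, on both strands. The GC box letters GGGCGG lay 114 bases before the start of Itga4, 151 before that of Itgb1 and once in the Itgav window, and were present in 35.7% of all 32851 promoters. The RUNX core letters TGTGGT lay, on the reverse strand, 60 bases before the start of Itga4, and were present in 16.8% of promoters. The STAT letters TTCNNNGAA, found in 8.30% of promoters, had no match in these 5 windows, nor had the ETS letters CCGGAAGT (3.89% of promoters) or the E-box CACGTG (7.15%). A match is a stretch of letters and not a binding site.

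The 8 libraries held 20171396 to 23282757 counts each. Stat3 was at 120 to 143 CPM (counts scaled to library size, here with TMM, a correction for library composition) in the 4 STAT3KO libraries and at 428 to 436 CPM in the 4 WT libraries. Cd4 was at 1360 to 1600 CPM in CD4 libraries and at most 8.16 CPM in CD8 libraries, and Cd8a at 819 to 984 CPM in CD8 libraries and at most 16 CPM in CD4 libraries. Replicate libraries of 1 group differed by more than sampling noise. In such bulk RNA, fewer cells carrying a transcript and less transcript per cell cannot be told apart. Marker levels that follow are in CPM by column total, without TMM. Of markers of other cells, platelet genes summed to 1.33 to 2.92 CPM except in STAT3KO CD8 replicate 2 (10.6 CPM, with Ppbp at 4.41 CPM), macrophage genes such as Csf1r and C1qa were lower in each group's replicate 1 library (Csf1r 0.558 to 2.51 CPM) than in its replicate 2 library (11.8 to 18.7 CPM), and T cell genes summed to 5270 to 6320 CPM. Some lists differed with genotype, each pair of ranges being of WT and then STAT3KO libraries. NK cell genes summed to 114 to 120 and 143 to 153 CPM in CD4 T cells. In CD8 T cells they summed to 992 to 1140 and 610 to 968 CPM. Gzma made up most of these sums, and Klra8 and Klra4 were at 0. In CD4 T cells Gzma, Eomes and Itga2 were each higher in both STAT3KO libraries than in both WT libraries. In CD8 T cells Gzma was lower and Eomes higher in both STAT3KO libraries. Endothelial genes, mostly Pecam1, summed to 338 to 414 and 257 to 276 CPM in CD4 T cells. In CD8 T cells the endothelial sums were 164 to 220 and 142 to 149 CPM. Dendritic cell genes summed to 240 to 273 CPM in WT and 161 to 208 CPM in STAT3KO libraries of CD8 T cells, mostly Itgax. Of B cell genes, Cd22 was at 94.6 to 106 CPM in WT and 146 to 167 CPM in STAT3KO CD4 libraries, while Ms4a1 and Blk were at 3 counts or fewer in all libraries. Neutrophil genes summed to 3.29 to 21.9 CPM and erythroid genes to 0.843 to 7.43 CPM, the 4 globin genes listed being at 0. The part of such genes in the results was not tested.

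**Figure D1:**
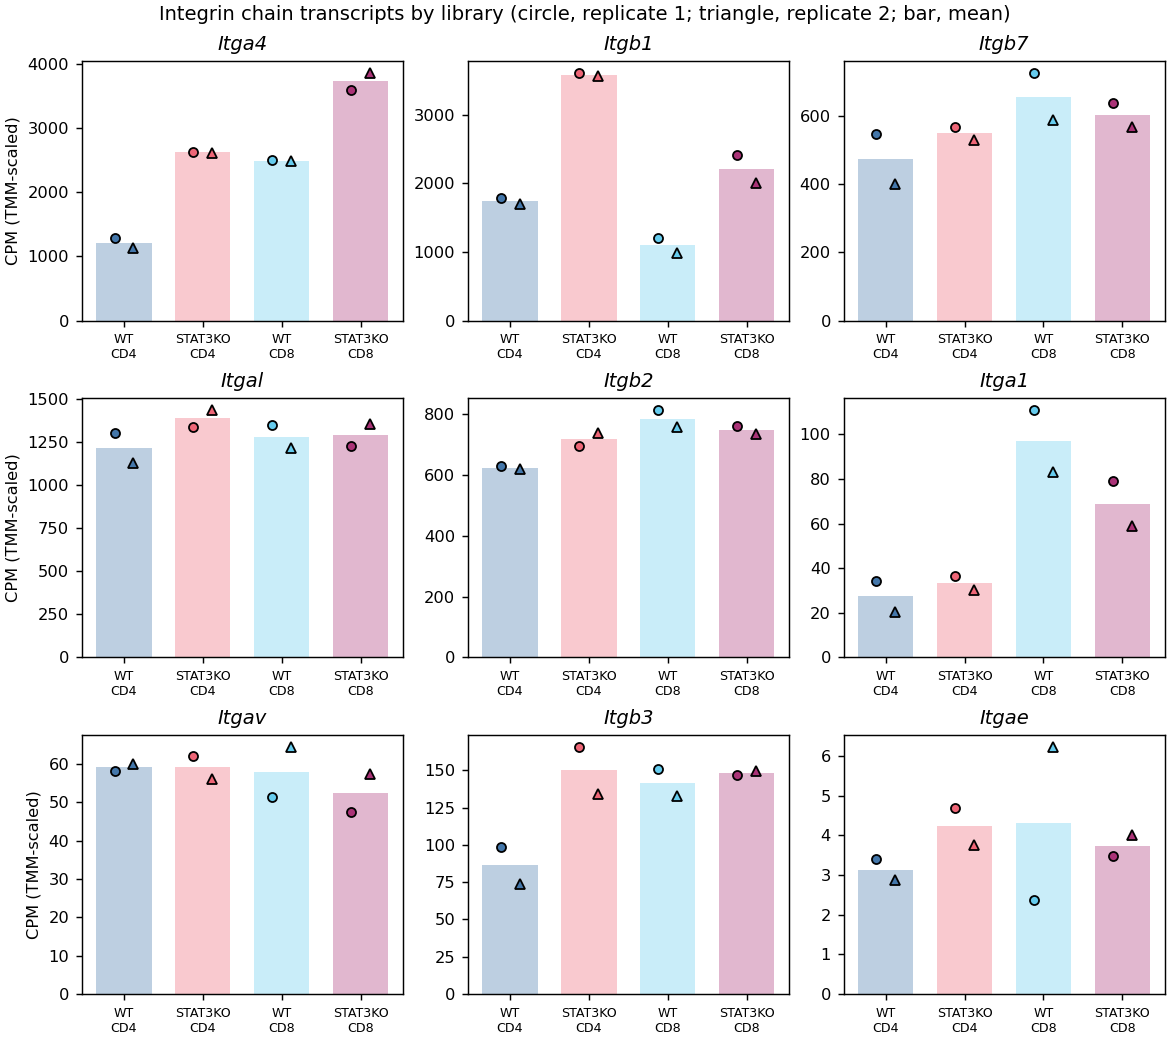
Level of each integrin chain in the 8 libraries, in TMM-scaled CPM on a linear axis from 0. Circles are replicate 1, triangles replicate 2 and bars the mean of 2. Itga4 and Itgb1 lie in 4 groups that do not overlap, and in Itgal and Itgav each group overlaps the next in order of mean. The share of all genes with 4 separate groups was not counted. For each pair of groups compared, 49.7% to 59.3% of all genes did not overlap.

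Per exon length, the scale on which chains can be set beside each other, the 9 chains fell into an abundant set of 5 and a lower set of 4. Itgb1 averaged 508 RPKM (reads per kilobase of exon, scaled to library size) over the 8 libraries and ranked 56th of the 12428 genes tested. Itga4 (252.5 RPKM), Itgal (245 RPKM), Itgb2 (243 RPKM) and Itgb7 (211 RPKM) came next, near each other and well below Itgb1. Itgb3 (22.5 RPKM), Itga1 (9.37 RPKM), Itgav (8.01 RPKM) and Itgae (0.989 RPKM) were far lower. The range over libraries was widest in Itga1, with a highest library 5.36 times the lowest in RPKM, followed by Itgb1 (3.66 times) and Itga4 (3.32 times), and narrowest in Itgal (1.23 times).

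**Figure D2:**
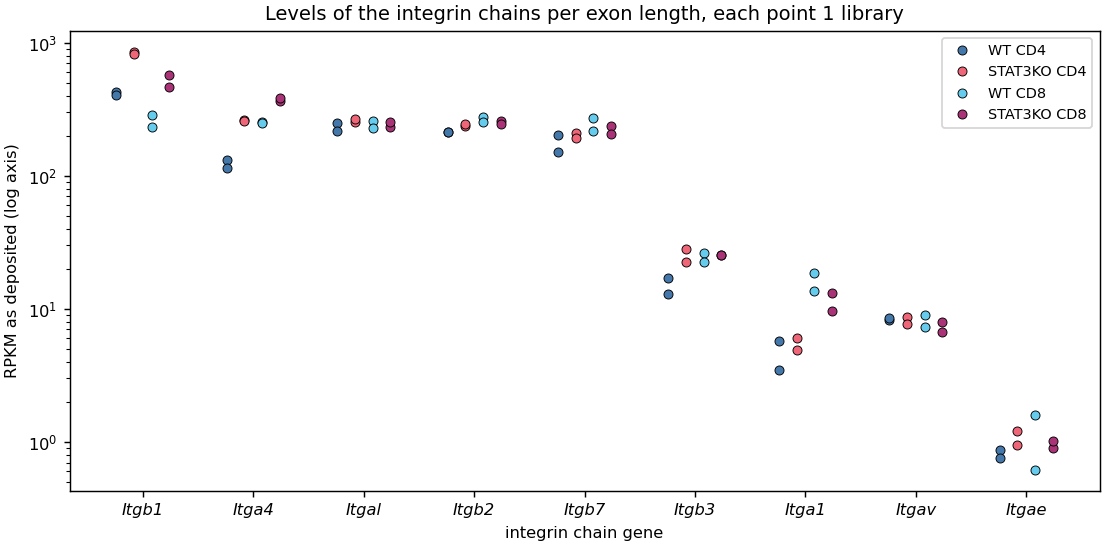
Deposited RPKM of the 9 integrin chains on a log axis, 1 point per library, coloured by group. Itgb1 is the most abundant chain, at 232 to 849 RPKM, and Itgae the scarcest, at 0.617 to 1.59 RPKM.

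The first comparison asked how the chains differed between STAT3KO and WT donor CD4 T cells. Of the 9 chains, 3 were called higher and 0 lower (edgeR quasi-likelihood test, Benjamini-Hochberg adjusted p under 0.05 over all genes tested), where 11.6% of all 12428 genes were called, 6.54% higher and 5.08% lower. With the replicate number as a block the same 3 chains were called, beside 30.1% of all genes. The median log2 fold change of the 9 chains was 0.28, against 0.0171 over all genes. Libraries of the groups did not overlap for 6 of the 9 chains, as for 53.5% of all genes.

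Itga4, the alpha chain of VLA-4 and α4β7, stood at 1291 and 1124 CPM in WT and 2634 and 2622 CPM in STAT3KO libraries of CD4 T cells. Both STAT3KO libraries stood above both WT libraries, and the means were 1207 ± 118 (SD, n = 2) and 2628 ± 8.78 CPM. The log2 fold change was 1.12 ± 0.086 (SE), with a 95% interval of 0.92 to 1.32 and an edgeR adjusted p of 0.000837. Itga4 lies at chr2:79255426-79333114 (mm10, plus strand), with 9832 exon bases in the deposited row. Of its 13978 exon bases in the GENCODE annotation, 8.0% overlap Cerkl on the opposite strand. The share among the RefSeq exons counted was not computed. Since the strand setting of the counting was not given, reads in such an overlap cannot be assigned. Cerkl itself had 65 to 103 counts per library, against 23779 or more for Itga4.

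Itgb1, the beta chain that VLA-4 shares with VLA-1 and the αVβ1 receptor, stood at 1793 and 1693 CPM in WT and 3604 and 3564 CPM in STAT3KO libraries. Itgb1 lies at chr8:128685654-128733579 (mm10, plus strand), with no other gene over its exons in the GENCODE annotation. The STAT3KO CD4 libraries were the highest of the 8. The log2 fold change was 1.04 ± 0.12 (SE), with a 95% interval of 0.75 to 1.33 and an edgeR adjusted p of 0.00275. The calls of Itga4 and Itgb1 in CD4 T cells held when each of the 8 libraries was left out and in the 8 other fits.

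Itgb3, the partner of Itgav in the vitronectin receptor and also a chain of the platelet fibrinogen receptor, stood at 98.7 and 74.1 CPM in WT and 165.8 and 134.2 CPM in STAT3KO libraries. WT CD4 was the lowest of the 4 groups, below the other 3, which overlapped. The log2 fold change in CD4 T cells was 0.80 ± 0.16 (SE), with an edgeR adjusted p of 0.0207, and 0.000294 with the replicate block. The fits that follow carried no block. The call was lost without WT CD4 replicate 2 (0.60, adjusted p = 0.106), without STAT3KO CD4 replicate 1 (0.61, adjusted p = 0.143) and with the 4 CD4 libraries alone (adjusted p = 0.0521). In the CD4 libraries, platelet markers summed to 1.55 to 2.06 CPM by column total in STAT3KO and 1.59 to 2.92 in WT. The part of platelets in the Itgb3 level was not tested.

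The other 6 chains missed the test in CD4 T cells. Itgb7 was at 549.2 and 401.2 CPM in WT and 569.9 and 529.6 CPM in STAT3KO libraries, which overlapped, a log2 fold change of 0.21 (edgeR adjusted p = 0.494). For LFA-1, Itgal was at 1302 and 1127 CPM in WT and at 1340 and 1437 CPM in STAT3KO (log2 fold change 0.19, interval -0.06 to 0.45), and Itgb2 at 630.7 and 618.8 CPM in WT and at 697.0 and 740.1 CPM in STAT3KO (0.20, interval -0.01 to 0.42). Both LFA-1 chains were a little higher in both STAT3KO libraries, and neither passed the test. Itga1 was at 34.4 and 20.5 CPM in WT and 36.5 and 30.2 CPM in STAT3KO libraries (0.28), and Itgav at 58.3 and 60.0 CPM in WT and 62.1 and 56.0 CPM in STAT3KO libraries (-0.0012). Itgae, the scarcest of the 9 chains, was at 3.39 and 2.88 CPM in WT and 4.70 and 3.75 CPM in STAT3KO libraries, and its log2 fold change of 0.43 had an interval of -0.55 to 1.41.

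In CD8 T cells, 2 of the 9 chains were called higher and 0 lower, where 2.07% of all 12428 genes were called, 1.34% higher and 0.732% lower. The median log2 fold change of the chains was -0.07, against -0.00706 over all genes. Itga4 stood at 2500 and 2486 CPM in WT and 3605 and 3856 CPM in STAT3KO libraries, so that the STAT3KO CD8 libraries were the highest of all 8. The log2 fold change of 0.58 ± 0.085 (SE) had a 95% interval of 0.38 to 0.78 and an edgeR adjusted p of 0.0256. Itgb1 stood at 1209 and 987.6 CPM in WT, the lowest of the 4 groups, and 2411 and 2010 CPM in STAT3KO libraries. Its log2 fold change of 1.01 ± 0.12 (SE) had a 95% interval of 0.72 to 1.29 and an edgeR adjusted p of 0.0144.

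The size of both changes was kept in other fits, but not always the call. With the replicate number as a block, the edgeR adjusted p was 0.00255 for Itga4 and 0.000223 for Itgb1. The fits with libraries left out, given next, carried no block. With libraries left out in turn, Itga4 kept a log2 fold change of 0.52 to 0.63 and Itgb1 of 0.86 to 1.15, but Itga4 stayed called only in the 2 fits without a WT CD4 library (edgeR adjusted p = 0.0644 to 0.183 in the other 6) and by limma it had an adjusted p of 0.0508. Itgb1 lost its call without WT CD8 replicate 2 (adjusted p = 0.0951), STAT3KO CD8 replicate 1 (0.0866) or STAT3KO CD8 replicate 2 (0.0695), and with the 4 CD8 libraries alone (0.0579). Itgb3, at 150.9 and 132.8 CPM in WT and 146.9 and 149.3 CPM in STAT3KO libraries, had a log2 fold change of 0.06 (interval -0.31 to 0.44). The 149.3 CPM library was STAT3KO CD8 replicate 2, the one with platelet genes at 10.6 CPM by column total, and its partner library with 1.33 CPM of them stood at 146.9 CPM for Itgb3. The part of platelets in these levels was not tested.

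Itga1, the alpha chain of VLA-1, stood at 110.9 and 83.2 CPM in WT and 78.9 and 58.7 CPM in STAT3KO libraries. The STAT3KO library was the lower within each replicate number, with differences of -0.49 and -0.50 in log2, and both STAT3KO libraries were below both WT libraries. Groups did not overlap for 3 of the 9 chains in CD8, as for 49.7% of all genes. Without the number as a block the log2 fold change was -0.50 (interval -1.11 to 0.11, edgeR adjusted p = 0.356), and with it -0.50 (adjusted p = 0.0108), a call that depends on the pairing of the libraries. With that block 3 chains were called in CD8, beside 18.2% of all genes. Itga1, at chr13:114958081-115101964 (mm10, minus strand), has 5982 exon bases in the deposited row. Of its 18599 exon bases in the GENCODE annotation, 3.7% are shared with Gm49395 on the same strand. The share among the RefSeq exons counted was not computed.

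The remaining chains missed the test in CD8 T cells. Itgal was at 1353 and 1214 CPM in WT and 1227 and 1354 CPM in STAT3KO libraries, which overlapped, with a log2 fold change of 0.0081. Itgb2 was at 813.9 and 757.3 CPM in WT and 762.1 and 736.4 CPM in STAT3KO libraries, a log2 fold change of -0.07 (interval -0.28 to 0.15). Itgb7, at 725.9 and 588.9 CPM in WT and 638.2 and 568.3 CPM in STAT3KO libraries, had a log2 fold change of -0.12 (interval -0.52 to 0.28). WT and STAT3KO libraries overlapped in both beta chains. Itgav, at 51.4 and 64.4 CPM in WT and 47.5 and 57.4 CPM in STAT3KO libraries, had a log2 fold change of -0.14. Itgae, at 2.38 and 6.23 CPM in WT and 3.47 and 4.01 CPM in STAT3KO libraries, had one of -0.20, with the WT libraries lying on either side of the STAT3KO ones.

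**Figure D3:**
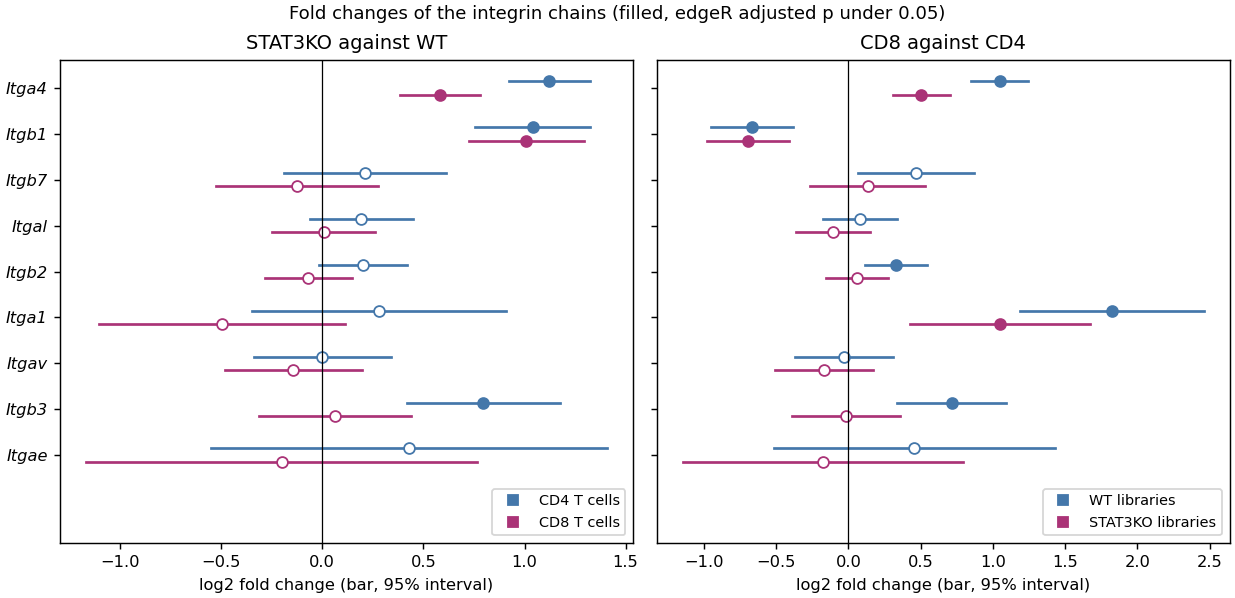
Log2 fold changes of the 9 chains with 95% intervals, STAT3KO against WT at left and CD8 against CD4 at right. Filled points were called at an edgeR adjusted p under 0.05. Itga4 and Itgb1 are filled in all 4 comparisons.

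Whether the STAT3KO effect differed between CD8 and CD4 T cells was tested as an interaction. By edgeR no chain was called, and neither was any of the 12428 genes (0%), although 982 genes, 2 of the chains among them, had an unadjusted p under 0.05. DESeq2 called 181 of 10106 genes (1.79%), 1 of them a chain (Itga4, at the threshold), and the fit with the replicate number as a block called 403 (3.24%), 3 of them chains. The difference in log2 fold change was -0.54 for Itga4 (95% interval -0.82 to -0.26, unadjusted p = 0.00223, edgeR adjusted p = 0.243), -0.73 for Itgb3 (interval -1.26 to -0.20, adjusted p = 0.408) and -0.78 for Itga1 (interval -1.65 to 0.10, adjusted p = 0.694). With the block these 3 chains had adjusted p of 0.0495, 0.023 and 0.0214. For Itgb1 the difference was -0.03 (interval -0.43 to 0.37) in log2, or 0.742 to 1.29 as a ratio of fold changes.

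Between CD8 and CD4 T cells of WT donors, 4 chains were called higher in CD8 and 1 lower, where 23.8% of all 12428 genes were called, 12.2% higher and 11.6% lower. Among STAT3KO libraries, 2 chains were called higher in CD8 and 1 lower, where 12.5% of genes were called, 5.84% higher and 6.67% lower, and with the replicate block the same 3 chains were called beside 29.7% of genes. These comparisons share their libraries with those of STAT3KO against WT.

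Itga1 had the largest contrast of the 9 chains in both comparisons. Among WT libraries it went from 34.4 and 20.5 CPM in CD4 to 110.9 and 83.2 CPM in CD8, a log2 fold change of 1.82 ± 0.27 (edgeR adjusted p = 0.0027). In STAT3KO libraries it went from 36.5 and 30.2 CPM in CD4 to 78.9 and 58.7 CPM in CD8, a log2 fold change of 1.05 (adjusted p = 0.0427), a call lost in 4 of the 8 fits without 1 library. All 4 CD8 libraries stood above all 4 CD4 libraries.

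Itga4 was likewise higher in CD8, with log2 fold changes of 1.05 among WT (edgeR adjusted p = 0.000245) and 0.51 among STAT3KO libraries (adjusted p = 0.00968). Its 4 groups did not overlap, with WT CD4 lowest, then WT CD8, then the CD4 and the CD8 libraries of STAT3KO. The share of all genes with 4 separate groups was not counted. Itgb1 was lower in CD8, with log2 fold changes of -0.67 among WT (adjusted p = 0.00667) and -0.70 among STAT3KO libraries (adjusted p = 0.0111), and its order was WT CD8, WT CD4, STAT3KO CD8 and STAT3KO CD4. With the replicate block, the edgeR adjusted p among STAT3KO libraries was 0.00207 for Itga4, 0.000341 for Itgb1 and 9.4e-05 for Itga1. The fits with a library left out, given next, carried no block. In the STAT3KO comparison, the calls of Itga4, Itgb1 and Itga1 were all lost without STAT3KO CD4 replicate 1 (adjusted p = 0.0696, 0.0759 and 0.134), without STAT3KO CD4 replicate 2 (0.0799, 0.0612 and 0.210) and without STAT3KO CD8 replicate 2 (0.0665, 0.0720 and 0.0756) by edgeR, and that of Itga1 also without STAT3KO CD8 replicate 1 (0.221).

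Among WT libraries Itgb3 was also higher in CD8 (0.72, edgeR adjusted p = 0.0169), with the call lost without WT CD4 replicate 2 (0.51, adjusted p = 0.0872) and without WT CD8 replicate 1 (0.60, adjusted p = 0.103). Itgb2 had a log2 fold change of 0.33 (adjusted p = 0.0382), and that call was lost in all 8 fits without 1 library (0.26 to 0.37, adjusted p = 0.0715 to 0.231). Itgb7 was at 0.47 (adjusted p = 0.0904, and 0.00248 with the replicate block, under which 6 chains and 42.1% of all genes were called). Among STAT3KO libraries these chains had log2 fold changes of -0.02 (Itgb3), 0.06 (Itgb2) and 0.13 (Itgb7), none called.

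Ratios of RPKM within a library show how the chains of a pair stood to each other. They are given as values, with no test. Transcript of Itga4 per Itgb1 in CD4 T cells was 0.307 and 0.283 with WT and 0.312 and 0.314 with STAT3KO donors, close together although both chains were higher in STAT3KO libraries. In CD8 libraries it was 0.882 and 1.07 in WT and 0.638 and 0.818 in STAT3KO, so all CD8 libraries were above all CD4 libraries.

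Itga4 per Itgb7, the transcripts of α4β7, went in CD4 T cells from 0.639 and 0.762 (WT) to 1.26 and 1.35 (STAT3KO). In CD8 T cells it went from 0.937 and 1.15 (WT) to 1.54 and 1.85 (STAT3KO). Itgb7 per Itgb1, the beta chains that share Itga4, went from 0.480 and 0.372 (WT) to 0.248 and 0.233 (STAT3KO) in CD4 T cells. In CD8 T cells the same ratio went from 0.942 and 0.935 (WT) to 0.415 and 0.443 (STAT3KO). In either cell type, STAT3KO libraries held less Itgb7 per Itgb1 and more Itga4 per Itgb7 than WT libraries, without overlap. Itga1 per Itgb1 went from 0.0643 and 0.0590 (WT) to 0.0229 and 0.0205 (STAT3KO) in CD8 T cells, and from 0.0134 and 0.00849 to 0.00709 and 0.00593 in CD4 T cells. Itgal per Itgb2, the LFA-1 pair, stayed between 0.900 and 1.16 in all 8 libraries, and Itgae per Itgb7 at or under 0.00735.

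**Figure D4:**
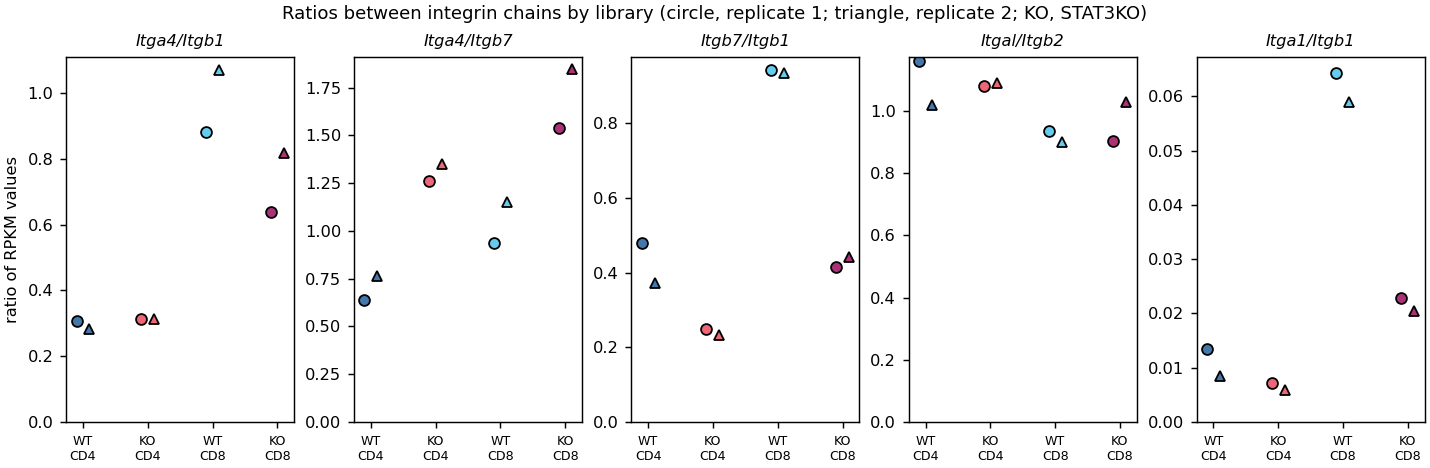
Ratios of deposited RPKM between integrin chains in each library, on linear axes from 0, with circles for replicate 1 and triangles for replicate 2. Itga4 per Itgb1 was 0.283 to 0.314 in the 4 CD4 libraries, Itgb7 per Itgb1 was lower in STAT3KO than in WT libraries of either cell type, and Itgal per Itgb2 stayed near 1.

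Of 19 further integrin chains, 14 were tested. In CD4 T cells 2 were called higher in STAT3KO libraries and 2 lower, and in CD8 T cells 0 higher and 1 lower, where edgeR called 11.6% and 2.07% of all genes. With the replicate block 6 were called in CD4 and 4 in CD8, beside 30.1% and 18.2% of all genes. Itga7, which with Itgb1 forms a laminin receptor, was at 24.9 CPM in both WT and at 6.2 and 4.8 CPM in the STAT3KO libraries of CD4 T cells (a change of -2.18 in log2, edgeR adjusted p = 0.00181), against -1.07 in CD8 T cells (adjusted p = 0.0809, and 0.0226 with the block). Itga3, also a laminin receptor chain, had a log2 fold change of -1.60 in CD4 (adjusted p = 0.00263) and -1.03 in CD8 (adjusted p = 0.0316). Itgam, the alpha chain of Mac-1 on myeloid cells and some T cells, was 29.5 ± 10.4 CPM in WT and 83.2 ± 4.01 CPM in STAT3KO CD4 libraries (1.49, adjusted p = 0.00649), while macrophage markers summed by column total to 26.0 and 75.2 CPM in WT and 29.1 and 104 CPM in STAT3KO CD4 libraries, so the groups overlapped in them. Their part in this result was not tested. Itga2, an alpha chain of a collagen receptor, had a log2 fold change of 0.53 in CD4 (adjusted p = 0.0492). Itgax (CD11c), a marker of dendritic cells that activated CD8 T cells can also carry, was at 231 to 274 CPM in WT CD8 and 13.8 to 15.8 CPM in WT CD4 libraries, a log2 fold change of 4.10. In STAT3KO against WT CD8 T cells Itgax had a log2 fold change of -0.44 (edgeR adjusted p = 0.173, and 0.0162 with the block). Of the other dendritic cell genes listed, Clec9a, Siglech and Cd209a were at 0 in all 8 libraries. Zbtb46 was at 0.663 to 1.78 CPM by column total, and Xcr1 and Flt3 at 0.0859 CPM or less. The part of dendritic cells in the Itgax level was not tested.

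Several proteins link integrins to the cytoskeleton or set their affinity. Of 15 tested genes of inside-out activation, by which signals inside the cell raise integrin affinity, 1 was called higher in STAT3KO CD4 T cells and 0 lower, and none in CD8 (edgeR, where 3 had an unadjusted p under 0.05, DESeq2 called 2 and the replicate block 5). With the block 9 were called in CD4. Over all genes, edgeR called 11.6% in CD4 and 2.07% in CD8, and with the block 30.1% and 18.2%. The gene called by edgeR without it was Rasgrp2, the exchange factor that activates Rap1, at 171 and 120 CPM in WT and 367 and 311 CPM in STAT3KO libraries (1.22 in log2, edgeR adjusted p = 0.0125), with 0.43 in CD8 (adjusted p = 0.329, and 0.00767 with the block). Next by p were Fyb, an adaptor of the integrin-activating complex, in CD4 (-0.45, adjusted p = 0.10) and the Rap1 genes Rap1a (0.40, adjusted p = 0.0896) and Rap1b (0.33, adjusted p = 0.122) in CD8. With the block these 3 had adjusted p of 0.00473, 0.00824 and 0.0174. Of 7 tested inhibitors of activation, Sipa1l1, a GTPase-activating protein for Rap, was called lower in CD4 (-1.49, adjusted p = 0.000806, from 299 to 106 CPM) and in CD8 (-0.88, adjusted p = 0.0167, from 206 to 112 CPM). No other gene of that list was called by edgeR without the block, the next by p being Sipa1 in CD4 (0.35, adjusted p = 0.340, and 0.00735 with the block) and Sharpin in CD8 (-0.21, adjusted p = 0.310).

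Of 19 tested genes of outside-in signalling, 0 were called higher and 2 lower in CD4, and 0 and 1 in CD8, while with the block 4 and 3 were called. Shares over all genes were 11.6% in CD4 and 2.07% in CD8, and with the block 30.1% and 18.2%. Tns1, which ties integrin tails to actin, was called lower in CD4 (-1.23, edgeR adjusted p = 0.00275) and CD8 (-0.84, adjusted p = 0.0316), and Actn1, an actin crosslinker, was called lower in CD4 (-0.45, adjusted p = 0.0226) with 0.35 in CD8 (adjusted p = 0.101, and 0.0127 with the block). Of 10 membrane partners, 1 was called in CD4 and 2 in CD8, and 3 in each with the block. Cd226, which associates with LFA-1, was called higher in CD4 (1.21, adjusted p = 0.0012, at 97.0 and 96.7 against 229 and 220 CPM) and in CD8 (0.57, adjusted p = 0.0457). The tetraspanin Cd53 was called higher in CD8 (0.51, adjusted p = 0.0467) with -0.08 in CD4, and Cd81, another tetraspanin, had -0.99 in CD4 (edgeR adjusted p = 0.167, and 0.00377 with the block).

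Of 11 tested ligands of integrins, none was called in either comparison by edgeR (0 in CD4 and 1 in CD8 had an unadjusted p under 0.05), DESeq2, limma or the replicate block. Lowest in p were the collagen gene Col1a1 in both cell types (-1.43, adjusted p = 0.206, and -1.55, adjusted p = 0.177 by edgeR), Fn1, the gene of fibronectin, in CD4 (1.57, adjusted p = 0.224, at 0.415 and 1.24 CPM) and Icam1 in CD8 (-0.27, adjusted p = 0.399). TGF-β is known to induce Itgae, and retinoic acid the gut-homing integrin, in T cells. Of 13 tested genes of these inputs, 1 was called higher and 1 lower in CD4 and none in CD8 (edgeR, where 2 had an unadjusted p under 0.05, and DESeq2 and the replicate block each called 2). With the block 5 were called in CD4. All genes were called at 11.6% in CD4 and 2.07% in CD8, and with the block at 30.1% and 18.2%. Rxra, a partner of the retinoic acid receptors, was called higher in CD4 (1.04, adjusted p = 0.00709), with 0.75 in CD8 (adjusted p = 0.0635, and 0.00534 with the block) and Tgfbr1 next at 0.60 (adjusted p = 0.114, and 0.0143 with the block), and Ski, a repressor of TGF-β signalling, lower in CD4 (-0.37, adjusted p = 0.0461) by edgeR. The medians of these lists lay between -0.15 and 0.30 in CD4.

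**Figure D5:**
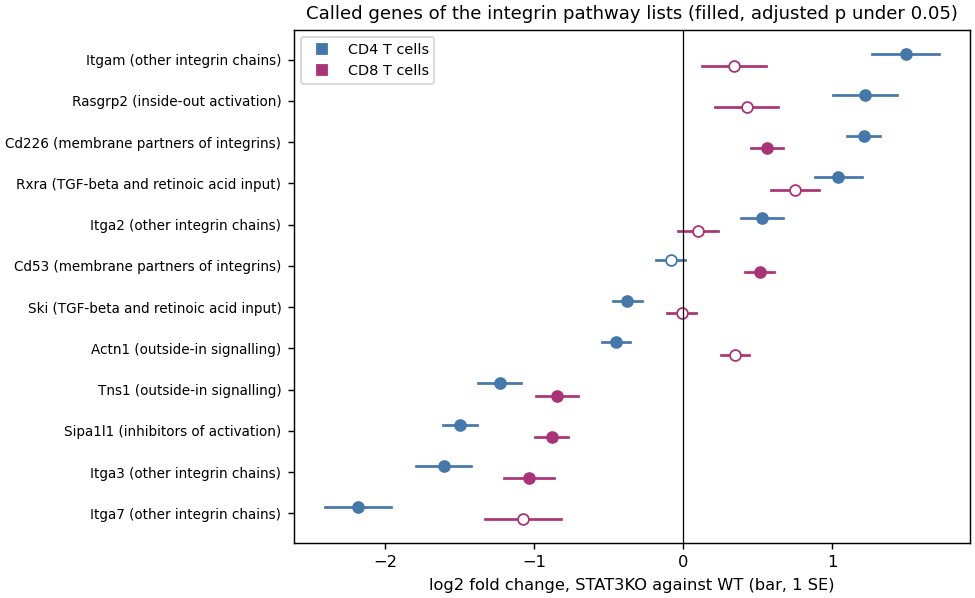
Log2 fold changes, STAT3KO against WT, of the genes of the integrin pathway lists called in either cell type, with 1 SE. Sipa1l1, Tns1 and Itga3 are filled below 0 and Cd226 is filled above 0 in both cell types.

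Across the 8 libraries, genes whose log2 CPM followed a chain most closely (Pearson r, among 8758 genes whose log2 CPM averaged 3 or more) were Pik3r1 (r = 0.994), 1500009L16Rik and Aspm for Itga4, Irf9 (r = 0.984), Gigyf2 and 9930111J21Rik1 for Itgb1, Hip1 (r = 0.991), Kif13b and Triobp for Itgb3, and Kcnab2 (r = 0.987), Flna and Plekhg3 for Itgb7. For Itga1 they were Paxip1 (r = 0.994), Mrpl16 and Ung, and for Itgb2 Hus1 (r = 0.993), Cmtm7 and Acad9. The best matches of Itgal (Ppip5k1, r = 0.929) and Itgav (Gapvd1, r = 0.939) were weaker. With 8 points in 4 groups, such values describe these libraries. Among the chains themselves, Itga4 and Itgb1, although both higher in STAT3KO libraries, correlated at r = 0.23.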

How the data were processed

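RNA-seq libraries of sorted donor CD4+ and CD8+ T cells, 2 per group of genotype and cell type, were grouped by their titles. Per the study's methods, single-end reads were aligned by the authors with STAR to the mouse genome mm10, counted per RefSeq gene with HTSeq-count, and scaled with TMM in edgeR. The authors deposited raw counts per gene (25078 genes) and RPKM values per gene, which were used here for levels between genes only. The strand setting of the counting was not given in the sources used here. The labels name the SMARTER kit and the study's methods another kit, and the growth protocol in the labels describes another cell system, so neither was used.

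Counts were tested with R 4.3.3 and edgeR 4.0.16 (filterByExpr with a minimum count of 10, TMM, glmQLFit with a mean per group over all 8 libraries, glmQLFTest, two-sided, Benjamini-Hochberg adjustment over 12428 genes, called at an adjusted p under 0.05). Alternatives used DESeq2 1.42.0, limma 3.58.1 on log2(RPKM + 1) and log2(RPKM + 0.1), other scaling, no filter, the 4 libraries compared alone, a replicate block, and each library left out. The fits with a library left out carried no block. Libraries of 1 replicate number deviated together (correlations of replicate differences between groups 0.424 to 0.671 over 6 pairs of groups), so the numbers in the titles were taken to pair the libraries. The study speaks of 2 batches of pooled mice for its receptor sequencing and does not say so of these libraries. Their titles also carry a serial that runs apart for each replicate number. Without the block, p-values measure the spread between pools, with any such batch included in it. The block takes out what libraries of 1 replicate number share, and whether that is a batch cannot be told. A CPM floor of 3 counts is 0.129 to 0.149, for counting error only. Scripts were tested on simulated data. The chains and the gene lists were chosen with earlier results of these data known. Named genes are the 9 chains, genes checking the labels, up to 4 called genes in each direction per list (the 2 of lowest p where fewer than 2 are called, and for CD8 against CD4 given in part) and the 3 genes most like each chain of mean log2 CPM of at least 3. One B cell marker, and the sum of the list that holds it, is not reported here.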

Additional observations from a re-analysis of the deposited data

How the results depend on the processing

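No result of the chains called by edgeR reversed direction in any other fit or with any library left out. The replicate block called Itga1 in CD8 (STAT3KO against WT), Itgb7 in CD8 against CD4 of WT, and 3 chains in the interaction, and the block changed no other call of a chain. DESeq2 called 1 chain in the interaction, and 6 rather than 5 for CD8 against CD4 in WT, adding Itgb7 (adjusted p = 0.0420). There Itgb2 was lost with both limma fits (adjusted p = 0.0587 and 0.0617), without the filter (edgeR, 0.0925) and with the 4 libraries alone (0.105). In STAT3KO both limma fits lost Itga1 (0.0568 and 0.0552), which left 2 chains. For STAT3KO against WT in CD8, 2 chains were called, and 1 each with limma on log2(RPKM + 1), with limma on log2(RPKM + 0.1) and with the 4 libraries alone.

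Without 1 library, called chains numbered 2 to 3 in CD4 and 0 to 2 in CD8 for STAT3KO against WT (0 without either STAT3KO CD8 library or WT CD8 replicate 2, and 1 without either STAT3KO CD4 library or WT CD8 replicate 1). They numbered 3 to 5 for CD8 against CD4 in WT (3 without WT CD4 replicate 2 or WT CD8 replicate 1) and 0 to 3 in STAT3KO (0 without either STAT3KO CD4 library or STAT3KO CD8 replicate 2).

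Genes of the pathway lists called numbered 11 in CD4, 5 in CD8, 26 for CD8 against CD4 in WT, 16 in STAT3KO and 0 in the interaction. With the block they numbered 29, 18, 45, 33 and 6. Shares over all genes were 11.6%, 2.07%, 23.8%, 12.5% and 0%, and with the block 30.1%, 18.2%, 42.1%, 29.7% and 3.24%. In the following, the counts are again those of the list genes. In CD8 they numbered 11 with DESeq2, 3 with total counts, 3 with limma on log2(RPKM + 1), 1 with limma on log2(RPKM + 0.1) and 0 with the 4 libraries alone, and DESeq2 called 5 in the interaction. Without 1 library they numbered 6 to 9 in CD4 (6 when STAT3KO CD4 replicate 1 was left out and 7 for WT CD4 replicate 2), 0 to 5 in CD8 (0 without any 1 of the 4 CD8 libraries and 1 without either STAT3KO CD4 library), 14 to 27 in WT (14 without WT CD8 replicate 1) and 7 to 17 in STAT3KO (7 or 8 without any 1 of its 4 libraries). The cause was not tested.

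Log2 fold changes near 0 that were not called changed sign. With the block Itgav in CD4 was 0.0018, and Itgal in CD8 was -0.032 with total counts, -0.0033 without the filter, -0.0017 with limma on log2(RPKM + 1) and -0.0018 with limma on log2(RPKM + 0.1). Without 1 library, STAT3KO against WT ran in CD4 from -0.054 to 0.67 (Itga1), -0.10 to 0.071 (Itgav) and -0.0067 to 0.43 (Itgb7), and in CD8 from -0.74 to 0.65 (Itgae), -0.077 to 0.080 (Itgal), -0.31 to 0.022 (Itgav), -0.034 to 0.15 (Itgb3) and -0.27 to 0.026 (Itgb7). CD8 against CD4 ran from -0.41 to 0.97 (Itgae), -0.038 to 0.17 (Itgal) and -0.21 to 0.11 (Itgav) in WT and from -0.18 to 0.14 (Itgb3) in STAT3KO, and the interaction from -1.15 to 0.23 (Itgae), -0.28 to 0.031 (Itgav) and -0.17 to 0.14 (Itgb1). At 55 to 148 counts per library, Itgae had the widest intervals.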

Other observations

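Between the 2 libraries of a group, the library numbered 2 had less Itgb1, Itga1 and Itgb7 in TMM-scaled CPM in all 4 groups. By column total this held for Itga1 and Itgb7, while Itgb1 in STAT3KO CD4 was at 3540 and 3552 CPM. The share of all genes with 1 direction in all 4 groups was not counted. Replicate differences over all genes tested correlated between groups at 0.424 to 0.671. Macrophage genes stood higher in the libraries numbered 2, with C1qa at 1.03 to 3.05 CPM (by column total) in those numbered 1 and 13.7 to 22.9 CPM in those numbered 2. Their part in the levels of the chains was not tested.

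Between CD8 and CD4 T cells of WT donors, 4 of 13 tested genes of TGF-β and retinoic acid input were called lower in CD8 and 0 higher (edgeR, where 11.6% of all genes tested were called lower and 12.2% higher), among them Ski (-1.51, adjusted p = 0.000125, from 126 to 44.2 CPM), Tgfbr3 (-1.89, adjusted p = 0.0168) and Tgfbr2 (-0.57, adjusted p = 0.0287). Of 14 tested further integrin chains, 4 were called higher in CD8 and 1 lower, and of 15 genes of inside-out activation 2 higher (Rasgrp2, 1.19, adjusted p = 0.00654, and Tln2) and 4 lower (Fyb, -0.92, adjusted p = 0.00419, Rasgrp1, Cyth1 and Rap1a). Of 19 genes of outside-in signalling, 3 were called higher (Zyx, Tns1 and Ilk) and 1 lower (Actn1). Of 10 membrane partners, 4 were called lower (Cd53, Cd82, Cd37 and Cd81) and Cd226 higher (1.41, adjusted p = 0.000196, from 96.9 to 258 CPM).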
